A study of Homo sapiens with 6 samples.

Results

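The genes described here are the cytosolic and mitochondrial chaperones of HEK293T cells, taken as a named list of 43 genes: HSP70, J-domain, BAG, HSP90, TRiC and prefoldin genes with their cochaperones, the mitochondrial chaperones and the regulator HSF1. The list was applied to a deposited table of 60420 genes by matching each Ensembl identifier to its symbol, and all 43 were found. HSPA1A and HSPA1B encode nearly the same protein from neighbouring genes and share reads, so their values were summed, which left 42 features. Of these, 41 had a mean of at least 5 TPM, a transcript level scaled to gene length and library total, over the libraries and were compared with the other tested genes, 9040 in all, of which 8117 were protein-coding. The exception was BAG2, with 4.6, 5.02 and 4.98 TPM in the footprints of the PRMT1 inhibitor, PRMT4 inhibitor and DMSO labels.

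The study profiled ribosomes in HEK293T, a line derived from human embryonic kidney and expressing large T antigen of SV40. The groups were cells given an inhibitor of PRMT1, cells given an inhibitor of PRMT4 (CARM1), both arginine methyltransferases, and cells given the solvent DMSO. Each group had 1 input library, read here as messenger RNA, and 1 library of ribosome-protected fragments, or footprints, 6 in all. No compound, dose or duration is named, all groups are the same unmodified line, and the labels describe the inputs too as protected RNA, so how they were prepared is not known here.

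Chaperones bind unfolded or newly made proteins and keep them from aggregating while they fold. HSP70 works in cycles of ATP hydrolysis that J-domain proteins start and that BAG proteins and HSP110 end by exchanging the nucleotide, and it passes some clients to HSP90. Prefoldin delivers actin and tubulin to the ring-shaped chaperonin TRiC, while HSPA9, HSPD1 and HSPE1 fold proteins imported into mitochondria, and HSF1 drives the heat-inducible members of these families through heat shock elements in their promoters.

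With 1 library a group there was no replicate error and no test was possible, so every difference describes these libraries. TPM keeps no sequencing depth, which is unknown. Ratios are log2((TPM + 1)/(TPM + 1)) with the DMSO library of the same kind below the line, shifted so that the median tested gene lies at 0, and a gene is counted as higher or lower at a ratio of at least 1.5-fold. Both inhibitor labels share the DMSO library of each kind, so a gene that is high in that library lies low in both ratios. Agreement between the labels is therefore not independent. In a bulk lysate, fewer cells making a message and less message per cell cannot be told apart. Among markers of this line, VIM lay between 104 and 208 TPM and ENO2 between 12.0 and 72.3 TPM, whereas PAX2 was at 1.15 TPM or less and CDH2 at 1.21 TPM or less. NEFL was at 7 TPM or less and NEFM at 1.97 TPM or less. Markers of blood, liver and skin cells (PTPRC, CD3E, HBB, ALB and KRT5) were at 0.08 TPM or less in all 6 libraries. A comparison of the labels across the kinds of library bears on ratios of footprints to input. HMOX1 had 21.6 TPM in the PRMT1-label input, 156.5 in the PRMT4-label input and 7.53 in the DMSO input, but 642 TPM in the PRMT1-label footprints, 93.9 in the PRMT4-label footprints and 33.0 in the DMSO footprints. Across the 8117 protein-coding genes, the PRMT1-over-PRMT4 ratio in input and the same ratio in footprints, which share no library, had a Pearson r of -0.42, and across the 41 chaperones -0.41. Over protein-coding genes, the PRMT1-label footprint ratios to DMSO had r of 0.36 with the PRMT1-label input ratios and 0.56 with the PRMT4-label ones. The PRMT4-label footprint ratios had r of 0.20 with the PRMT4-label input ratios and 0.46 with the PRMT1-label ones. Whether the inhibitor inputs, or the inhibitor footprints, carry each other's label was not tested, and which inhibitor a ratio belongs to rests on the labels alone. Libraries are therefore named by label. Efficiency medians over all chaperones, and single chaperones past 1.5-fold in efficiency, are given with both inhibitor inputs.

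Chaperone messages were abundant. In the DMSO footprints 38 of the 41 tested features lay above the median protein-coding gene and 22 above its 90th percentile. Together the 42 features held 1.14% of protein-coding TPM in the PRMT1-label footprints, 1.16% in the PRMT4-label footprints and 1.27% in the DMSO footprints. Their share of input was 1.26% in the PRMT1-label library, 1.31% in the PRMT4-label library and 1.36% in the DMSO library. Both inhibitor labels were thus below DMSO in each kind of library, by small amounts. Single abundant features weigh on these sums. HSPA1A+HSPA1B held 480, 403 and 926 of the 7081, 8223 and 9443 TPM of all features in the PRMT1-label, PRMT4-label and DMSO footprints. In the matching inputs it held 254, 553 and 507 of 4889, 4393 and 6219 TPM, so it was not below DMSO in the PRMT4-label input. TRiC, HSP90 with its cochaperones and the HSP70 group carried the largest sums, and the BAG proteins, DNAJB4 and HSPA14 had the lowest footprint levels.

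**Figure D1:**
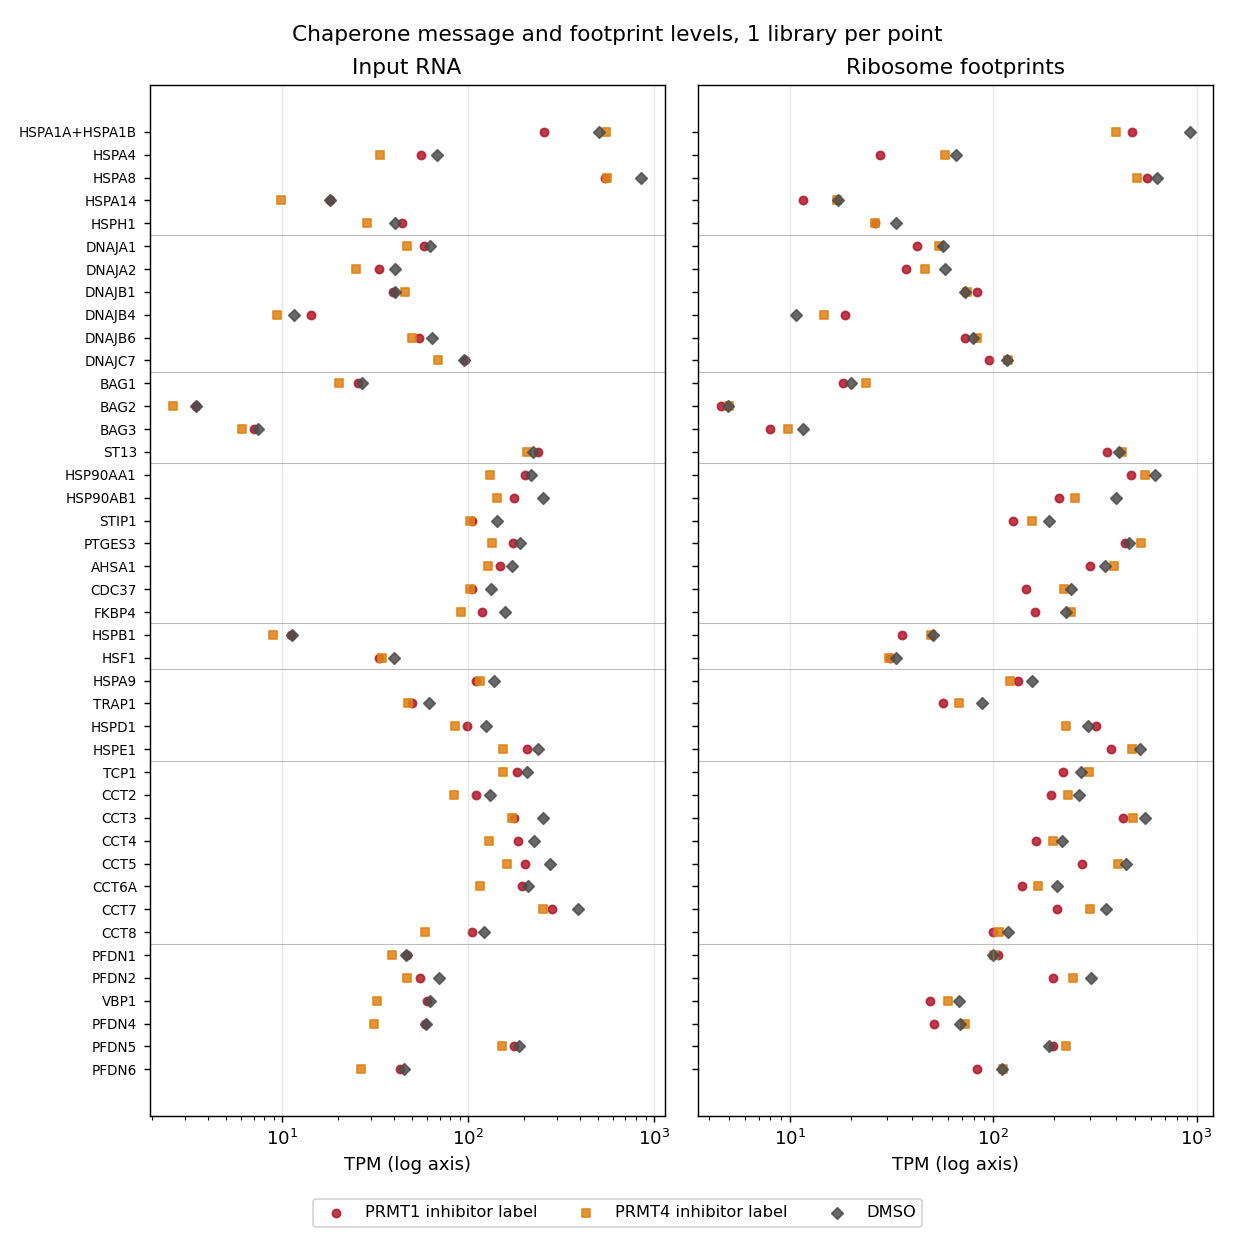
TPM of each chaperone feature (rows, grouped by family) on a log axis in input RNA (left) and ribosome footprints (right), 1 library per point and no replicates. In footprints the HSPA1A+HSPA1B sum is at 480 TPM in the PRMT1 label and 403 in the PRMT4 label, against 926 in DMSO, the widest gap among the abundant features.

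As a group the chaperones lay below the median gene in footprints of both inhibitor labels, which share 1 DMSO footprint library. In the PRMT1-label footprints 32 of 41 ratios were below 0, with a median of -0.27, whereas 52.4% of protein-coding genes were below 0. One was at least 1.5-fold higher, where 9.48% of all tested genes were, and 5 were lower, where 4.65% were. In the PRMT4-label footprints 27 of 41 were below 0 with a median of -0.12. None was higher, where 3.09% of tested genes were, and 2 were lower, where 1.83% were. Input gave a smaller shift in the PRMT1 label and a like one in the PRMT4 label. In the PRMT1-label input 23 of 41 were below 0, with a median of -0.05, none higher against 1.91% of tested genes and 1 lower against 0.918%. In the PRMT4-label input 30 of 41 were below 0, with a median of -0.14, none higher against 5.85% and 2 lower against 3.11%. The counts of features past 1.5-fold are small, and the shift is mainly one of many moderate ratios on the same side.

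**Figure D2:**
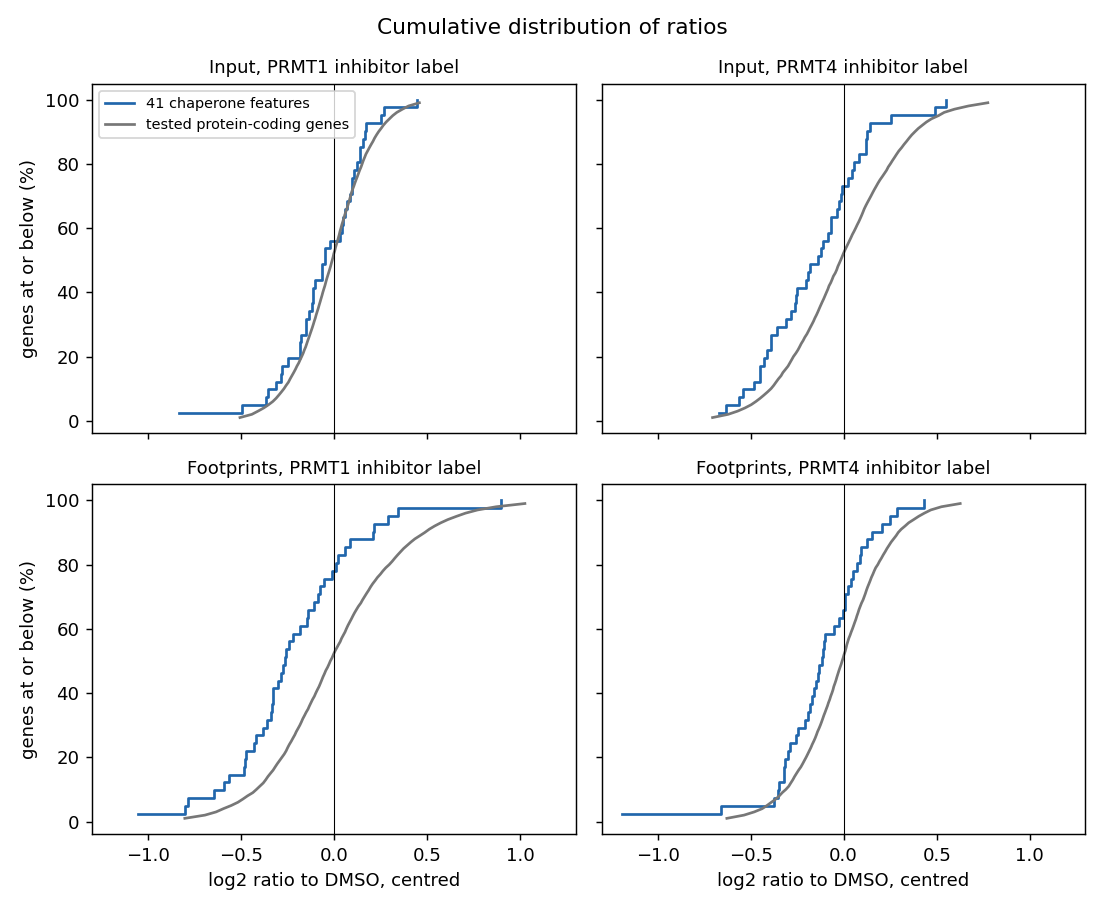
Cumulative share (%) of the 41 chaperone features and of the tested protein-coding genes at or below each log2 ratio to DMSO. The chaperone curve lies left of the other curve in footprints, with medians of -0.27 for the PRMT1 label and -0.12 for the PRMT4 label, and close to it in the PRMT1-label input, with a median of -0.05.

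The shift moved with expression level. Of the 41 features, 24 were among the top 10% of protein-coding genes by mean level. The 812 genes of that class had a median of -0.17 in the PRMT1-label footprints, where the 24 chaperones had -0.26. In the PRMT4-label footprints the genes had -0.06 and the chaperones -0.15. In input the 24 chaperones were near the genes of that class: -0.14 against -0.12 in the PRMT1-label library and -0.20 against -0.20 in the PRMT4-label library. With the median of genes at the same level subtracted, the chaperone medians were -0.11 and -0.06 in the PRMT1-label and PRMT4-label footprints and 0.07 and 0.00 in the PRMT1-label and PRMT4-label inputs. On that scale the input medians were no longer below 0, and the footprint medians were.

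**Figure D3:**
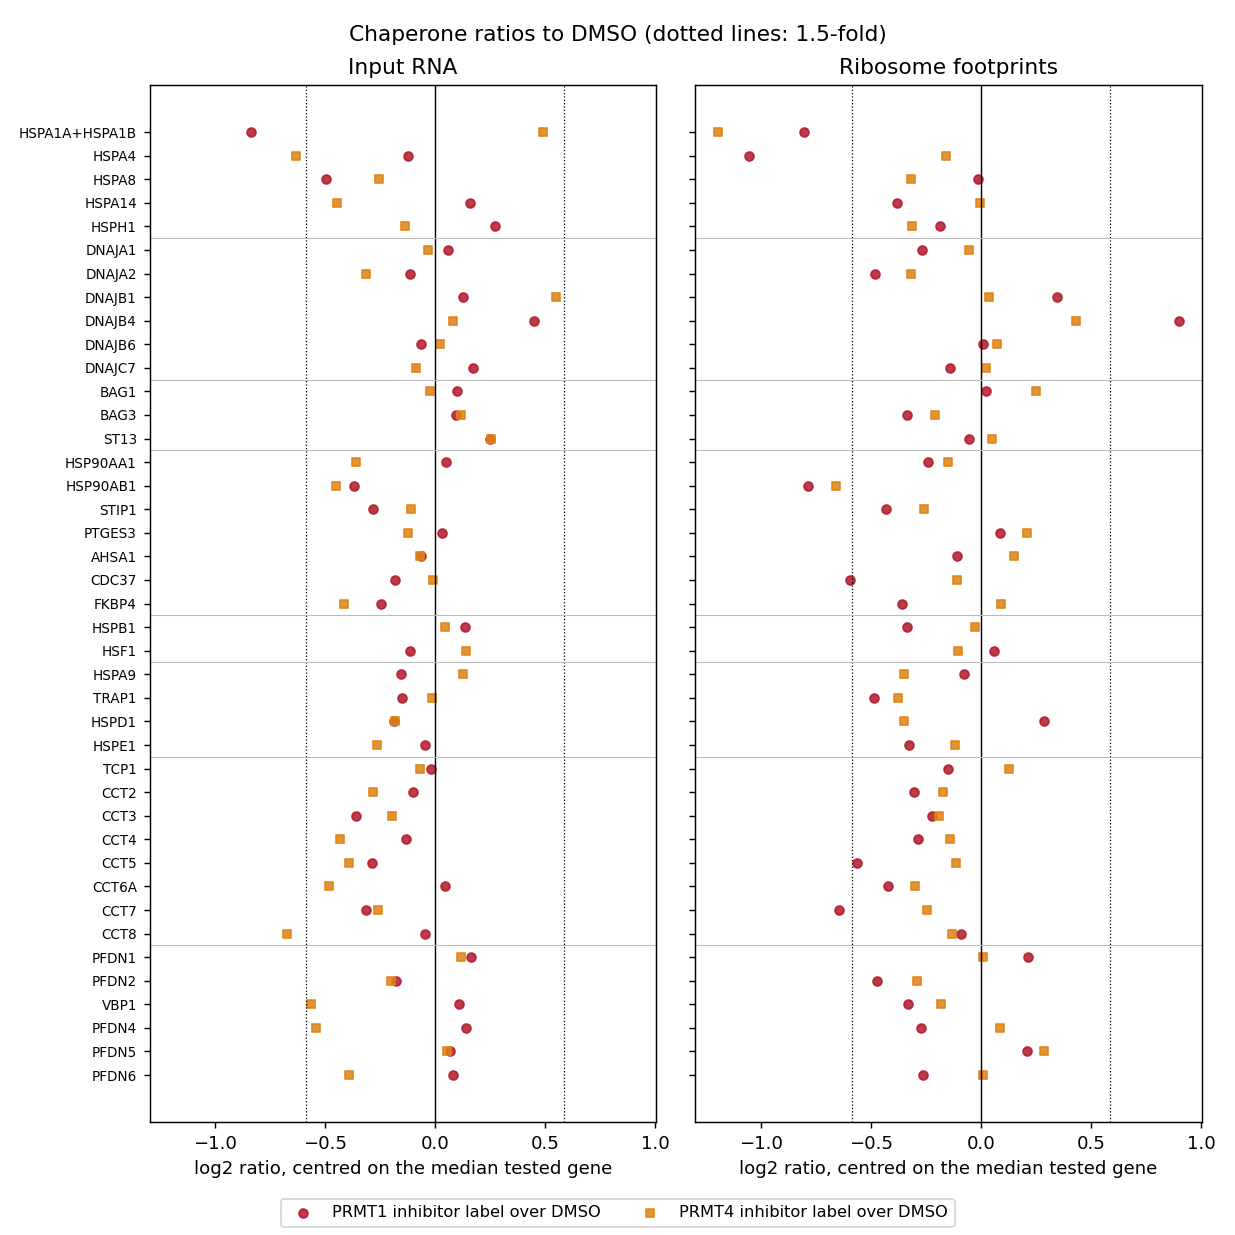
Centred log2 ratio to DMSO of each tested chaperone feature, by family, for input (left) and footprints (right), 1 pair of libraries per point. HSPA1A+HSPA1B, HSPA4 and HSP90AB1 lie past the lower 1.5-fold line in footprints of at least 1 inhibitor label, and DNAJB4 lies past the upper one.

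The stress-inducible HSP70 genes stood out most. The HSPA1A+HSPA1B sum had 480 TPM in the PRMT1-label footprints, 403 in the PRMT4-label footprints and 926 in the DMSO footprints. Its input was 254 TPM in the PRMT1-label library, 553 in the PRMT4-label library and 507 in the DMSO library. Footprints of both inhibitor labels were thus below those of DMSO, while in input this held for the PRMT1 label alone. The ratios were -0.80 and -1.19 in the PRMT1-label and PRMT4-label footprints and -0.83 and 0.49 in the PRMT1-label and PRMT4-label inputs. Among the 9040 tested genes the sum was the 15th lowest in the PRMT4-label footprints, the 131st lowest in the PRMT1-label footprints and the 25th lowest in the PRMT1-label input. Nearly all of it was assigned to HSPA1B (ENSG00000204388), which had 923 TPM in the DMSO footprints, and HSPA1A (ENSG00000204389) had 2.68 TPM there. That split is uncertain because the copies share most of their sequence. After the median of genes at the same level was subtracted, the sum was at -0.63 in the PRMT1-label footprints and -1.14 in the PRMT4-label footprints.

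**Figure D4:**
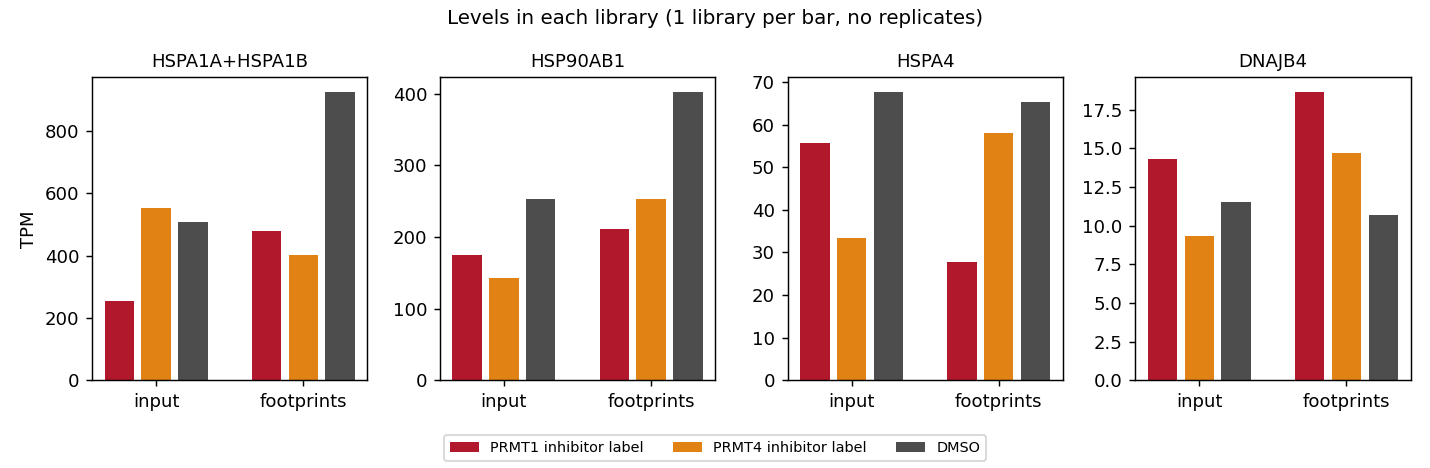
TPM of 4 chaperone features in each of the 6 libraries, with input at left and footprints at right in each panel and bars starting at 0. HSP90AB1 is lower in both inhibitor labels than in DMSO in input and footprints, HSPA4 footprints are low in the PRMT1 label (27.8 TPM), and DNAJB4 footprints are higher in both inhibitor labels than in DMSO.

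How alike the HSPA1 copies are extends to the region upstream. The promoter windows from RefSeq (GRCh38.p14), each running from 250 bases before to 50 bases after the transcription start, are shown because these genes gave the largest ratios in the group. Both lie on the plus strand of chromosome 6, HSPA1A at chr6:31815293-31815592 and HSPA1B at chr6:31827488-31827787. Capitals mark GAANNTTC, a pair of inverted heat shock units, where N is any base. When aligned with an offset of 1 base, 277 of 299 bases were identical (92.6%), and the marked motif reads the same in both, starting at position -106 in HSPA1A and -105 in HSPA1B.
HSPA1A: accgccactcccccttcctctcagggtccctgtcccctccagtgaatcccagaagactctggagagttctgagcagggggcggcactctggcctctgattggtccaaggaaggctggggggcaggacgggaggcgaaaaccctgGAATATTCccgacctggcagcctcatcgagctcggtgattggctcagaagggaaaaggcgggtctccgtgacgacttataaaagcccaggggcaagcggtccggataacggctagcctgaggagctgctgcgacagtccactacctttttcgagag
HSPA1B: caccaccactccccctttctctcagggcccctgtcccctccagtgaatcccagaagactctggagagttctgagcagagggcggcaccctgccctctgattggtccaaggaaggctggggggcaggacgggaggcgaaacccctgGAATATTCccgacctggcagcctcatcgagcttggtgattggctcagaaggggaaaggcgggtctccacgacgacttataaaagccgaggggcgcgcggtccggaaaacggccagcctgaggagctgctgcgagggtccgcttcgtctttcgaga

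The other HSP70 and HSP110 features gave lower footprint levels in varying degree. HSPA4, an HSP110-type nucleotide exchange factor, had 27.8 TPM in the PRMT1-label footprints, 58.0 in the PRMT4-label footprints and 65.2 in the DMSO footprints. Its input was 55.6 TPM in the PRMT1-label library, 33.4 in the PRMT4-label library and 67.7 in the DMSO library. Thus footprints were low in the PRMT1 label and input in the PRMT4 label. The ratios were -1.05 for the PRMT1-label footprints, the 37th lowest of the tested genes, and -0.63 for the PRMT4-label input. After adjustment for expression level the footprint ratio was -0.91 and the input ratio -0.49. HSPA8, the constitutive HSP70 and the most abundant chaperone message in DMSO input, had 569, 508 and 636 TPM in the footprints of the PRMT1, PRMT4 and DMSO labels, and 542, 555 and 852 TPM in their inputs. Its ratios, between -0.49 and -0.01, did not reach 1.5-fold. HSPA14, a ribosome-bound HSP70, was the lowest of the family with 11.6, 17.1 and 17.2 TPM in the PRMT1-label, PRMT4-label and DMSO footprints, and 18.0, 9.82 and 18.0 TPM in the matching inputs. HSPH1 (HSP110) had footprint ratios of -0.18 in the PRMT1 label and -0.31 in the PRMT4 label. All 5 features of this family were below 0 in the PRMT1-label footprints (median -0.38), and all 5 in the PRMT4-label footprints (median -0.31), where HSPA14 (-0.0035) was nearly at 0.

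The J-domain proteins, which stimulate the ATPase of HSP70, did not share that direction. DNAJB4 had 18.7 TPM in the PRMT1-label footprints, 14.7 in the PRMT4-label footprints and 10.7 in the DMSO footprints, and its input was 14.3, 9.3 and 11.6 TPM in the PRMT1, PRMT4 and DMSO labels. It was the only chaperone at least 1.5-fold higher in footprints, with ratios of 0.90 in the PRMT1 label and 0.43 in the PRMT4 label. DNAJB4 was also the least abundant J-domain member in each library. DNAJB1, the main heat-inducible J-domain partner of HSPA1A, had 83.2, 74.0 and 72.3 TPM in the PRMT1-label, PRMT4-label and DMSO footprints. Its ratios were 0.34 and 0.04 in the PRMT1-label and PRMT4-label footprints and 0.13 and 0.55 in the PRMT1-label and PRMT4-label inputs. All 4 DNAJB1 ratios lay above 0. DNAJC7, a cochaperone that binds both HSP70 and HSP90, was the most abundant of the family at 95.7, 118 and 117 TPM in the PRMT1-label, PRMT4-label and DMSO footprints, and 95.6, 69.1 and 94.7 TPM in the matching inputs. DNAJA2 had the lowest footprint ratios, -0.48 in the PRMT1 label and -0.32 in the PRMT4 label, and DNAJA1 (-0.27 and -0.05) and DNAJB6 (0.01 and 0.07) lay nearer 0. The family medians in footprints were -0.06 in the PRMT1 label and 0.03 in the PRMT4 label.

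Of the HSP70 cofactors, ST13 (HIP), which stabilises the ADP-bound form of HSP70, was the most abundant, with 361, 428 and 415 TPM in the PRMT1-label, PRMT4-label and DMSO footprints and 238, 207 and 223 TPM in the matching inputs. BAG3, the stress-inducible BAG protein that links HSP70 to autophagy, had 7.99, 9.82 and 11.6 TPM in the PRMT1-label, PRMT4-label and DMSO footprints, with ratios of -0.34 in the PRMT1 label and -0.21 in the PRMT4 label. Its input was 7.04, 6.07 and 7.39 TPM in the PRMT1, PRMT4 and DMSO labels, and that of BAG2, left out of the ratios, 3.44, 2.58 and 3.43 TPM. The third tested cofactor, the exchange factor BAG1, had ratios of 0.02 and 0.25. None reached 1.5-fold in input or footprints.

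In the HSP90 group the lowest footprint ratios were those of the constitutive isoform. HSP90AB1, the constitutive cytosolic HSP90, had 211 TPM in the PRMT1-label footprints, 254 in the PRMT4-label footprints and 403 in the DMSO footprints. In input it had 175 TPM in the PRMT1-label library, 143 in the PRMT4-label library and 253 in the DMSO library. It was below DMSO in both inhibitor labels and both kinds of library, with ratios of -0.78 and -0.66 in the PRMT1-label and PRMT4-label footprints and -0.37 and -0.45 in the PRMT1-label and PRMT4-label inputs. Those footprint ratios ranked 138th and 106th lowest of the tested genes, and were -0.61 and -0.60 after adjustment for expression level. HSP90AA1, the inducible isoform, had 475 TPM in the PRMT1-label footprints, 558 in the PRMT4-label footprints and 622 in the DMSO footprints, with ratios of -0.24 and -0.15. Its input was 201 TPM in the PRMT1-label library, 131 in the PRMT4-label library and 217 in the DMSO library, with ratios of 0.05 and -0.36. In the PRMT4-label input both isoforms were thus below DMSO to a like degree. The cochaperone that brings kinases to HSP90, CDC37, had 144, 223 and 241 TPM in the PRMT1-label, PRMT4-label and DMSO footprints, against 105, 103 and 133 TPM in the matching inputs. Its ratio of -0.59 in the PRMT1-label footprints was just past 1.5-fold and was -0.42 after adjustment for expression level. STIP1 (HOP), which joins HSP70 to HSP90, was the least abundant in footprints at 125, 156 and 187 TPM in the PRMT1, PRMT4 and DMSO labels, against 105, 102 and 143 TPM in the matching inputs, with footprint ratios of -0.43 in the PRMT1 label and -0.26 in the PRMT4 label. The remaining cochaperones were above 0 in the PRMT4-label footprints: PTGES3 (p23), which holds HSP90 closed, had footprint ratios of 0.09 and 0.21 in the PRMT1 and PRMT4 labels, the ATPase activator AHSA1 -0.11 and 0.15, and the immunophilin FKBP4 -0.36 and 0.09. In the PRMT1-label footprints 6 of the 7 were below 0 (median -0.36), and in the PRMT4-label footprints 4 of 7 (median -0.11).

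One promoter window of HSP90AB1 holds the densest run of heat shock units among those printed. It is 1 of 3 RefSeq windows of the gene, at chr6:44247693-44247992 on the plus strand (GRCh38.p14), and is shown beside the DNAJB4 window because these genes had the lowest and highest footprint ratios outside the HSP70 family. Capitals mark TTCNNGAA and GAANNTTC, which overlap by 3 bases where units follow each other. The DNAJB4 window is 1 of 2, at chr1:78004689-78004988 on the plus strand, and holds 1 TTCNNGAA starting at position -98.
HSP90AB1: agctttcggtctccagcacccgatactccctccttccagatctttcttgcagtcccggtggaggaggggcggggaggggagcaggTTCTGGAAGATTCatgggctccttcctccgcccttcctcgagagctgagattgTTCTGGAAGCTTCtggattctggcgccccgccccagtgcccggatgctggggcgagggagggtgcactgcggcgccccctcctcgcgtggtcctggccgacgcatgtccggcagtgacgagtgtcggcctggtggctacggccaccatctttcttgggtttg
DNAJB4: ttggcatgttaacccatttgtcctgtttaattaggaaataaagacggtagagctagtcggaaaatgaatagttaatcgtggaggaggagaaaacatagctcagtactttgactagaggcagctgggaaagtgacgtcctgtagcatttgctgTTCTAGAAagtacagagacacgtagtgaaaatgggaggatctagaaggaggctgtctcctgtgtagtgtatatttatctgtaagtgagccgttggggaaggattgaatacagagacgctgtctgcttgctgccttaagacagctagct

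HSF1, the transcription factor of the heat shock response, showed nearly level footprints, with 31.1, 30.6 and 33.1 TPM in the PRMT1, PRMT4 and DMSO labels. Its input was 33.0 TPM in the PRMT1 label, 34.2 in the PRMT4 label and 40.1 in DMSO. All its ratios in input and footprints lay between -0.11 and 0.14. HSPB1 (HSP27), a small heat shock protein that holds unfolded clients without ATP, had 35.7, 49.2 and 50.3 TPM in the PRMT1-label, PRMT4-label and DMSO footprints, and 11.1, 8.85 and 11.3 TPM in the matching inputs. The PRMT1-label footprint library alone stood below the other footprint libraries, with a ratio of -0.34. Its footprint level in DMSO was 4.45 times its input level, the highest such quotient among the chaperones and at percentile 97.5 of protein-coding genes.

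Of the mitochondrial chaperones, none reached 1.5-fold against DMSO. HSPE1, the co-chaperonin that caps HSPD1, had 379, 482 and 525 TPM in the PRMT1-label, PRMT4-label and DMSO footprints, and 206, 154 and 238 TPM in the matching inputs. A readthrough gene, HSPE1-MOB4, overlaps it and had at most 14.2 TPM in any library. TRAP1, the mitochondrial HSP90, was the least abundant with 56.9, 67.7 and 88.5 TPM in the PRMT1-label, PRMT4-label and DMSO footprints, against 49.7, 47.3 and 61.8 TPM in the matching inputs. Its footprint ratios were -0.48 in the PRMT1 label and -0.38 in the PRMT4 label. HSPD1, the chaperonin itself, had 321, 227 and 291 TPM in the PRMT1-label, PRMT4-label and DMSO footprints, so the inhibitor labels lay on opposite sides of DMSO. HSPA9 (mortalin), the mitochondrial HSP70, had footprint ratios of -0.08 in the PRMT1 label and -0.35 in the PRMT4 label. All 4 were below 0 in the PRMT4-label footprints (median -0.35) and 3 of 4 in the PRMT1-label footprints (median -0.20).

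TRiC, the chaperonin whose ring holds 1 copy of each of 8 different subunits, had moderate ratios, mostly below 0. The summed subunits had 1727 TPM in the PRMT1-label footprints, 2199 in the PRMT4-label footprints and 2440 in the DMSO footprints, and 1434, 1127 and 1813 TPM in the matching inputs. All 8 subunits were below 0 in the PRMT1-label footprints (median -0.29) and 7 of 8 in the PRMT4-label footprints (median -0.16), TCP1 being the exception at 0.13. In input 7 of 8 were below 0 in the PRMT1 label (median -0.12) and 8 of 8 in the PRMT4 label (median -0.34). CCT7 had 206, 300 and 357 TPM in the PRMT1-label, PRMT4-label and DMSO footprints, against 281, 253 and 390 TPM in the matching inputs. Its ratio of -0.65 in the PRMT1-label footprints was past 1.5-fold, and was -0.47 after adjustment for expression level. CCT8 had 100.1, 107 and 118 TPM in the PRMT1-label, PRMT4-label and DMSO footprints, and 105, 58.6 and 121 TPM in the matching inputs. Its low value was thus in the PRMT4-label input, at a ratio of -0.67, which was -0.46 after the adjustment for level and -0.53 after one for transcript length and GC content. CCT3 was the most abundant subunit in footprints, with 434, 489 and 561 TPM in the PRMT1, PRMT4 and DMSO labels against 176, 171 and 252 TPM in the matching inputs, and CCT8 was the least. Although the assembled ring has equal numbers of each, the highest subunit exceeded the lowest 4.34-fold in the PRMT1-label footprints, 4.56-fold in the PRMT4-label footprints and 4.75-fold in the DMSO footprints, on the TPM scale. The spread in input was 2.68-fold in the PRMT1-label library, 4.32-fold in the PRMT4-label library and 3.22-fold in the DMSO library. CCT5 came next to CCT7, with footprint ratios of -0.56 in the PRMT1 label and -0.11 in the PRMT4 label, and CCT6A had -0.42 and -0.30.

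Prefoldin, the cochaperone of TRiC with 6 different subunits, gave ratios to DMSO on both sides of 0 in input and footprints, none at 1.5-fold. PFDN2 was the most abundant subunit in footprints, with 197, 246 and 303 TPM in the PRMT1, PRMT4 and DMSO labels, against 54.9, 46.7 and 69.7 TPM in the matching inputs. VBP1 (PFDN3) was the least abundant, with 48.8, 59.7 and 68.2 TPM in the PRMT1-label, PRMT4-label and DMSO footprints and 59.7, 32.1 and 61.9 TPM in the matching inputs. Both stood below DMSO in footprints of both inhibitor labels, with ratios of -0.47 and -0.29 for PFDN2 and -0.33 and -0.18 for VBP1. PFDN5 lay on the other side, at 0.21 in the PRMT1-label footprints and 0.29 in the PRMT4-label footprints, and PFDN1 at 0.22 and 0.01. In the PRMT4-label input VBP1 was at -0.56, PFDN4 at -0.54 and PFDN6 at -0.39, while PFDN1 and PFDN5 were at 0.12 and 0.05.

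Footprint level over input level, called translation efficiency here, depended on which input was used. In DMSO the quotient of TPM had a median of 1.43 over the 41 features against 1.08 over protein-coding genes, and 28 of 41 lay above the protein-coding median. This quotient was not adjusted for transcript length, with which it had a Spearman rho of -0.33 over protein-coding genes and -0.30 over the chaperones. Chaperone transcripts were shorter, with a median of 2381 bases against 2848 over protein-coding genes. PFDN2 (4.35) and HSP90AA1 (2.86) followed HSPB1, while BAG1 and HSPA8 were lowest, both at 0.746. As a ratio to DMSO with the input of the same label, the median was -0.28 in the PRMT1 label, with 29 of 41 below 0, and 0.04 in the PRMT4 label, with 19 of 41 below 0. With the input of the other inhibitor label the medians were -0.06 and -0.08. In the PRMT1 label no chaperone was at least 1.5-fold higher, where 8.45% of tested genes were, and only HSPA4 was lower (-0.94), where 3.81% were. In the PRMT4 label PFDN4 was higher (0.61), where 4.7% were, and HSPA1A+HSPA1B lower (-1.69), where 8.22% were. With the other inhibitor's input HSPA4 was at -0.44, PFDN4 at -0.06 and HSPA1A+HSPA1B at -0.37. None of the 3 calls therefore held with both inputs, and for HSPA1A+HSPA1B the PRMT1-label value was 0.03 with its own input and -1.31 with the other. HSP90AB1 was below 0 with either input, at -0.42 and -0.35 in the PRMT1 label and -0.22 and -0.30 in the PRMT4 label, with the own and the other input. It shared this with BAG3, TRAP1 and others: 9 of 41 features were below 0 in all 4 ratios, and 2 were above 0 in all 4. The 4 ratios share both DMSO libraries and, within a label, its footprint library, so they are not independent. The share of all tested genes on the same side of 0 in all 4 was not computed, so these counts have no background.

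Set directly against each other, the inhibitor labels gave chaperone medians of opposite sign in input and in footprints. In input, PRMT1 label over PRMT4 label, 29 of 41 were above 0 with a median of 0.11, which was 0.02 once transcript length and GC content were adjusted for and 0.04 once expression level was. There 4 features were at least 1.5-fold higher, namely PFDN4 (0.70), VBP1 (0.69), CCT8 (0.64) and HSPA14 (0.62), where 4.02% of tested genes were, and HSPA1A+HSPA1B alone was lower (-1.31), where 4.14% were. In footprints 31 of 41 were below 0 with a median of -0.13. It was -0.10 once transcript length and GC content were adjusted for and -0.03 once expression level was. Among the top 10% of protein-coding genes by mean level this footprint median was -0.11, and over the 24 chaperones there -0.12. HSPD1 was higher (0.64), where 8.52% of tested genes were, and HSPA4 lower (-0.89), where 2.69% were. All 7 features of the HSP90 group were below 0 in the footprints of the PRMT1 label over the PRMT4 label (median -0.17), and all 6 prefoldin subunits were above 0 in input (median 0.28).

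The input difference moved with base composition. Across protein-coding genes the input ratio of the PRMT1 label over the PRMT4 label had a Spearman rho of -0.58 with the GC content of the transcript, and across the 41 chaperones -0.64, over genes of the same pair of libraries. The chaperones that were higher in the PRMT1 label were poor in GC: 38.2% in VBP1, 40.6% in PFDN4, 43.1% in CCT8 and 43.1% in HSPA14, against a median of 48.1% over the 41. Against DMSO the inputs had opposite signs: rho with GC content was -0.38 over protein-coding genes and -0.36 over the chaperones in the PRMT1 label, and 0.32 and 0.44 in the PRMT4 label. Footprints showed little of this, with rho over the chaperones of -0.17 in the PRMT1 label and -0.08 in the PRMT4 label. HSPA1A+HSPA1B, given the GC content of HSPA1B (58.7%), had a ratio of -1.31, where the 984 protein-coding genes from 58 to 62% GC had a median of -0.21. Of the 18 chaperones with under 45% GC, 17 were above 0 in this input ratio (median 0.26), and of the other 23, 12 were (median 0.02), a split chosen after the values were seen.

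**Figure D5:**
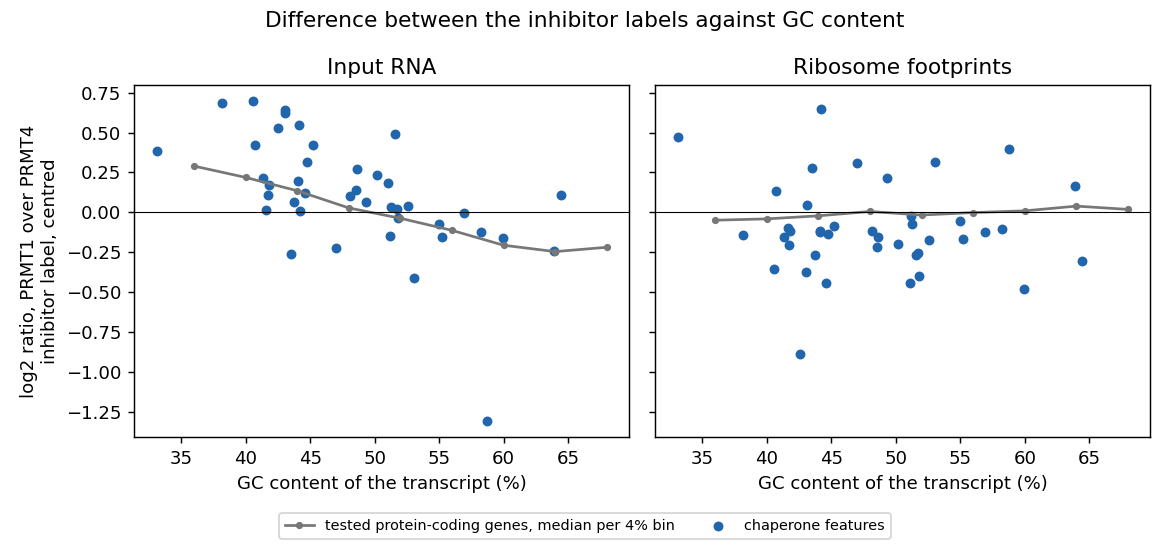
Centred log2 ratio of the PRMT1 label over the PRMT4 label against GC content (%), for input (left) and footprints (right). GC content is that of each gene's transcript with the longest coding sequence, and that of HSPA1B for the HSPA1A+HSPA1B sum. Points are chaperone features and the line joins medians of protein-coding genes in bins of 4% GC. In input both slope downward, with VBP1 (0.69) and PFDN4 (0.70) at low GC and HSPA1A+HSPA1B (-1.31) apart at the bottom.

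The heat-inducible members had footprint medians close to those of the rest. The 12 features known as targets of HSF1 in heat shock, HSPA1A+HSPA1B, HSPH1, DNAJB1, HSP90AA1 and HSPD1 among them, had medians of -0.25 in the PRMT1-label footprints and -0.13 in the PRMT4-label footprints. The other 29 tested features had -0.27 and -0.11. In input the heat-inducible features had medians of 0.05 in the PRMT1 label and -0.05 in the PRMT4 label, and the others -0.10 and -0.25. In PRMT4-label efficiency with the input of the same label they had -0.12 and the others 0.10. This contrast rests on that input: with the other inhibitor's input the median over all chaperones was -0.08, and no medians were taken for the groups. RefSeq windows were matched for 37 of the 43 genes, and GAANNTTC or TTCNNGAA, each of which reads the same on both strands, occurred in 18 of these 37 genes (48.6%) against 16.2% of all 27305 genes with a window. At least 3 contiguous units occurred in 6 of the 37 (16.2%) against 0.608% of all genes: HSPA8, HSPD1, HSP90AA1, HSP90AB1, DNAJA1 and DNAJB6. Footprint medians of the 16 tested features with either motif were -0.25 in the PRMT1 label and -0.15 in the PRMT4 label, and those of the 19 without were -0.27 and -0.12. A motif match is a description of the sequence in this window and not a site of binding.

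Other genes of these pathways, taken from lists chosen with earlier results known, gave footprint medians nearer 0 before any adjustment for expression level. In the PRMT1-label footprints the median was -0.11 over 17 tested of 25 further HSP70-system genes, -0.04 over 16 of 17 further HSP90 cochaperones, -0.04 over 15 of 15 mitochondrial quality control genes and -0.19 over 11 of 14 partners of TRiC and prefoldin. In the PRMT4-label footprints these medians were -0.04, -0.02, 0.00 and -0.06. The lists were not adjusted for expression level. With that adjustment the chaperones had medians of -0.11 in the PRMT1-label footprints and -0.06 in the PRMT4-label footprints. Whether the lists and the chaperones differ at like expression level was therefore not examined. In the PRMT4-label input the partners of TRiC and prefoldin had -0.19, below the -0.14 of the chaperones themselves. Against DMSO, 5 genes of these lists were at least 1.5-fold higher or lower in input or footprints. Of all tested genes, 9.48% were higher and 4.65% lower in the PRMT1-label footprints, and 5.85% were higher in the PRMT4-label input. DNAJB2, a J-domain protein abundant in neurons, had 21.2, 19.2 and 14.4 TPM in the PRMT1-label, PRMT4-label and DMSO footprints, a ratio of 0.68 in the PRMT1 label, and 0.64 in the PRMT4-label input. DNAJC6 (auxilin), which uncoats clathrin vesicles with HSPA8, had 3.67, 5.73 and 8.04 TPM in the PRMT1-label, PRMT4-label and DMSO footprints, a ratio of -0.81 in the PRMT1 label. SPG7, a mitochondrial inner membrane protease, had 0.69 in the PRMT1-label footprints and 0.60 in the PRMT4-label input. NUDC, an HSP90 cochaperone, and TBCD, which assembles tubulin dimers after TRiC, were at -0.63 and -0.61 in the PRMT1-label footprints. Only HSF2 and HSBP1 were tested from 8 further HSF and small heat shock genes, with ratios of -0.03 and -0.02 in the PRMT1-label footprints.

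Reads from pseudogenes could add to or take from a few members. For 21 of them, 123 pseudogene copies were listed under the member's name, and the one that reached 5 TPM was PFDN1P1, with 7.72 TPM in the PRMT1-label input.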

How the data were processed

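The deposited table held TPM computed by the authors, 1 column per library and 6 in all, and each column was assigned to the library whose label it matched. Tools listed without roles in the submitters' processing notes are RSEM 1.2.22, STAR 2.4.2a, Bowtie 1.1.2 and cutadapt 1.18, on the build GRCh37.p13, and strand handling is not stated there. TPM keeps no depth, so no counting interval was possible, and because each library sums to a fixed total, abundant small RNAs in 1 library lower its other genes. Protein-coding genes held 38.7%, 33.4% and 45.7% of TPM in the PRMT1-label, PRMT4-label and DMSO inputs and 62.3%, 70.6% and 74.3% in the matching footprints.

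Symbols came from a separate list of gene names. Gene types, GC content and length came from GENCODE release 29, on a later build, so no coordinates were taken from it. Genes with a mean of at least 5 TPM were compared as log2((TPM + 1)/(TPM + 1)), which understates ratios of low genes, centred on the median tested gene, with Python 3.11.15 and its packages pandas 2.3.3, numpy 2.4.6, matplotlib 3.10.9 and scipy 1.17.1. The code was tested on simulated data. Before centring, the median tested gene lay at -0.16 and -0.37 in the PRMT1-label and PRMT4-label inputs, at -0.15 and -0.01 in their footprints and at 0.02 and 0.37 in translation efficiency. Differences past 1.5-fold were counted, without p-values.

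The members and gene lists were chosen with earlier results of these data known. The text gives all TPM values of HSPA1A+HSPA1B, of each member past 1.5-fold in input or footprints against DMSO, and of the members highest and lowest in DMSO footprints per family. Members named beyond these were chosen after their values were seen. Alternatives were other pseudocounts and filters, no centring, rescaling to protein-coding genes and the other inhibitor's input. Adjustments for GC content and length and for expression level (20 bins of genes) were added after seeing the data.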

Additional observations from a re-analysis of the deposited data

Results flagged for a closer look

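In 3 cases the inhibitor labels lay on opposite sides of DMSO, with at least 1 of them past 1.5-fold and the other more than 0.1 from 0. The difference between the labels was not tested in any of them. HSPA1A+HSPA1B input was at -0.83 in the PRMT1 label and 0.49 in the PRMT4 label, a difference of -1.32 on the log2 scale. Translation efficiency of HSPA4 was at -0.94 in the PRMT1 label and 0.46 in the PRMT4 label, a difference of -1.40, and that of PFDN4 at -0.42 and 0.61, a difference of -1.03. With each footprint library set over the input of the other inhibitor label, HSPA4 was at -0.44 in the PRMT1 label and -0.05 in the PRMT4 label, and PFDN4 at 0.25 and -0.06. Translation efficiency of HSPA1A+HSPA1B was at 0.03 in the PRMT1 label, close to 0, and at -1.69 in the PRMT4 label.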

How the results depend on the processing

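With no replicates, a median was taken as moved when it shifted by more than 0.1 on the log2 scale and a count when it differed by more than 1.5 times. No result for the PRMT4-label footprints moved by that measure, but 0.1 is nearly as large as their median of -0.12, which was -0.05 after rescaling to protein-coding genes and -0.06 after adjustment for expression level. Without a filter, the medians were -0.19 (PRMT1-label input), -0.47 (PRMT4-label input), -0.41 (PRMT1-label footprints), 0.36 (PRMT4-label efficiency), 0.28 (PRMT1 over PRMT4 label, input) and -0.27 (footprints). Without centring they were -0.21, -0.50, -0.41, 0.41, 0.30 and -0.27. Features at least 1.5-fold lower then numbered 2 in the PRMT1-label input, 17 in the PRMT4-label input and 9 in the PRMT1-label footprints in both settings. Features higher in PRMT4-label efficiency numbered 12 without a filter and 13 without centring. With a mean of at least 1 TPM, 4 were lower in the PRMT4-label input and 2 higher in PRMT4-label efficiency. Rescaling to protein-coding genes gave a median of -0.16 and 3 lower in the PRMT1-label footprints, and 1 higher and 1 lower in the PRMT4-label input. Adjustment for GC content and length left 0 lower in the PRMT4-label input, 1 higher in PRMT1-label efficiency and 0 higher in PRMT4-label efficiency. Adjustment for expression level turned the input medians to 0.07 (PRMT1 label) and 0.00 (PRMT4 label), with 2 higher and 0 lower in the PRMT4-label input, gave -0.11 and 3 lower in the PRMT1-label footprints, and 0 higher and 3 lower in PRMT4-label efficiency. With the other inhibitor's input, the efficiency medians were -0.06 (PRMT1 label, 1 higher and 2 lower) and -0.08 (PRMT4 label, reversed, 0 higher), and PFDN4 in the PRMT4 label reversed to -0.06. Of single features past 1.5-fold, CDC37 in the PRMT1-label footprints was at -0.55 after the GC and length adjustment, -0.49 after rescaling and -0.42 after the level adjustment, and CCT7 at -0.54 after rescaling. The ratios of HSP90AB1, HSPA4 and DNAJB4 in footprints and of HSPA1A+HSPA1B in footprints and PRMT1-label input that passed 1.5-fold did so in every alternative that keeps the copies summed. Leaving out a replicate was not possible. No paired analysis was possible because each group has 1 library of each kind. Depth is unknown, so low members such as BAG3 and DNAJB4 carry an unknown counting error. The causes of these shifts were not tested.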
